A study of Homo sapiens with 2 samples.

Results

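The 22 tRNA genes of the mitochondrial genome were examined in small RNA libraries of A549, a human lung adenocarcinoma cell line. They were all the features that the deposited count table classes as mitochondrial tRNA, 22 of 5475 features in all. The cells were kept for 24 h in normoxia, at 20% oxygen, or in hypoxia, at 1.2% oxygen, in the same serum-supplemented DMEM medium, and the labels name no genetic change in either group. There was 1 library per condition, so a difference between the libraries has no replicate check and no p-value. The library from normoxia held 6449337 counts and that from hypoxia 13115226. Intervals are exact 95% intervals that cover counting error only, and because PCR reads without molecular identifiers are not independent molecules, they are too narrow even for that. hsa-miR-210, a miRNA known to be induced by low oxygen, had 4307 counts in normoxia against 22849 in hypoxia, which gave a log2 ratio of 1.38 on the scale of CPM (counts scaled to a library total of 1000000). The table holds small RNAs, so mRNA markers of the cell line could not be looked at.

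Mitochondrial tRNAs deliver amino acids to the mitochondrial ribosome, which makes a small set of respiratory chain proteins. They are coded on both strands of the circular mitochondrial DNA, are transcribed within long polycistronic RNAs that also hold the rRNAs and mRNAs, and are cut out at their 5′ end by the mitochondrial RNase P and at their 3′ end by ELAC2. Each amino acid has a single mitochondrial tRNA, apart from leucine and serine, which have a pair each, and tRNAs between the protein genes serve as cutting marks. Pieces of tRNA are a regular part of small RNA libraries. The table gives 1 count per tRNA, so counts from its 5′ part, its 3′ part and its whole length cannot be told apart.

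Each of the 22 listed sequences was identical to the GENCODE 29 transcript of the same identifier, at the same position on the mitochondrial chromosome of GRCh38, and each is a gene of a single exon. The table gives no strand, which was therefore taken from GENCODE: 14 tRNAs are coded on the plus strand and 8 on the minus strand. Lengths ran from 59 to 75 bases with a median of 69, and GC content from 23.1% to 49.3%. The following 6 sequences are shown because the results turn on them: MT-TS2 with its direct neighbours MT-TH and MT-TL2, MT-TR and MT-TW, which passed the size rule given further on, and MT-TM, which had the largest log2 ratio above 0 after MT-TR and MT-TS2. They are written 5′ to 3′ as listed in the table, and the capitals mark the anticodon, which pairs with the codon of the mRNA.

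MT-TS2 (chrM:12207-12265, plus strand): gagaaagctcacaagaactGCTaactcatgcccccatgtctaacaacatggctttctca
MT-TH (chrM:12138-12206, plus strand): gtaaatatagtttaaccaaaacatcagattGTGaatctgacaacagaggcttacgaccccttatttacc
MT-TL2 (chrM:12266-12336, plus strand): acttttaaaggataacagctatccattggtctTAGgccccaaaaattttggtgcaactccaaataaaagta
MT-TM (chrM:4402-4469, plus strand): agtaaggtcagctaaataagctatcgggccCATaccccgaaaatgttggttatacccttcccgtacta
MT-TW (chrM:5512-5579, plus strand): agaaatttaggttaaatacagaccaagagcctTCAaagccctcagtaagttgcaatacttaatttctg
MT-TR (chrM:10405-10469, plus strand): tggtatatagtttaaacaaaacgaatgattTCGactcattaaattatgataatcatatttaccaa

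MT-TS2, the serine tRNA for AGY codons (Y being C or U), is the shortest member at 59 bases and is known for lacking the whole D arm, so its anticodon starts at base 20 while those of the other 5 start at base 31 or 33. MT-TR, the arginine tRNA, is 65 bases long with the lowest GC content of the 22.

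As a class, the 22 tRNAs took 3.20% of all counts in normoxia (206566 counts, interval 3.19% to 3.22%) and 3.34% in hypoxia (438503 counts, 3.33% to 3.35%). The log2 ratio of hypoxia over normoxia of the class was 0.062 (0.054 to 0.070) when scaled by all counts, but it turned to -0.053 with TMM factors over all features, to -0.039 with DESeq2 size factors and to -0.052 when the most abundant features were kept out of the totals, so the class has no direction that is independent of the scaling. Without MT-TS2 the class had 165162 and 302083 counts and a log2 ratio of -0.15 (-0.16 to -0.14), and each of the other scalings lowers this value further. Among the 1639 features past the expression filter, a mean log2 CPM above 3, the median log2 ratio was 0.13. The median of the 22 tRNAs, all of which passed that filter, was -0.21. The pooled median mixes unlike classes: among features past the filter it was -0.09 for nuclear tRNA features, -0.02 for mature miRNAs and 0.79 for rRNA features.

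The level of single tRNAs spanned a wide range within each library, as shown by the plot of levels in gene order. Per base of tRNA, the most abundant member, MT-TS2, lay 101-fold above the least abundant, MT-TG, in normoxia and 149-fold above it in hypoxia. Dividing by length raises this fold, and the per-base folds of MT-TS2 given below, because MT-TS2 is the shortest member. The counts themselves were 41404 for MT-TS2 against 474 for MT-TG in normoxia, and 136420 against 1052 in hypoxia. The 5 tRNAs with most counts held 58.5% of the class in normoxia and 63.9% in hypoxia, and the 10 with fewest held 7.51% and 6.62%. The order of the levels was largely shared, with a Spearman's rho of 0.95 across the 22 tRNAs between the libraries, given as a description of values that share their sequence and library chemistry.

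**Figure D1:**
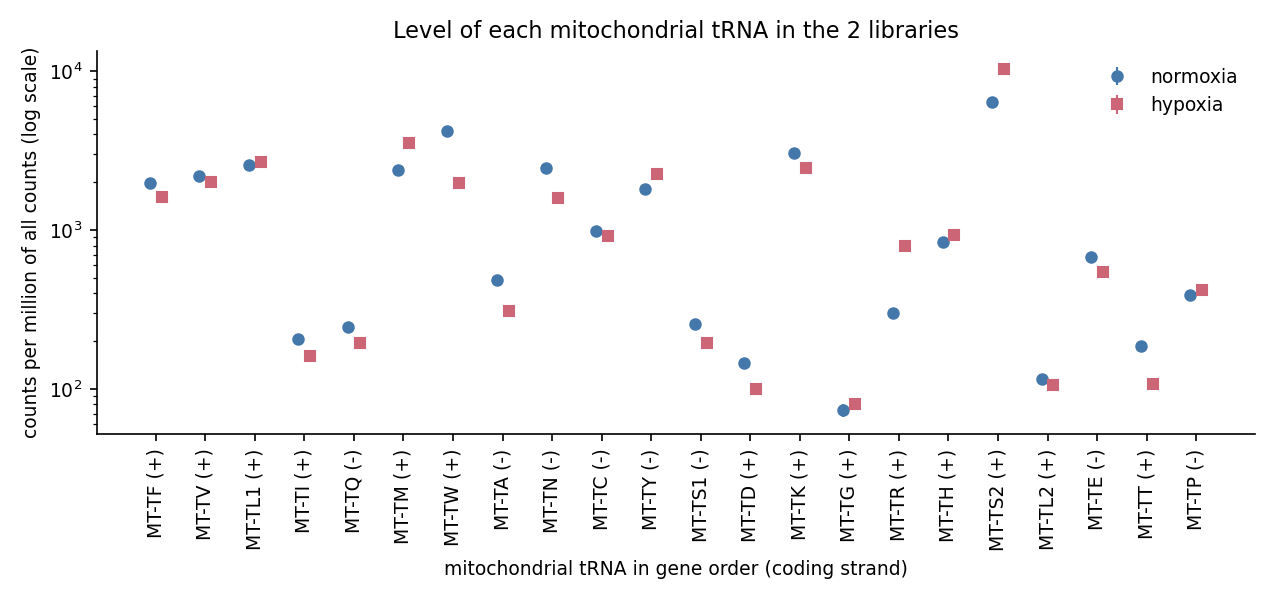
CPM (log scale) of each mitochondrial tRNA in the library from normoxia (circles) and from hypoxia (squares), in gene order along the mitochondrial chromosome with the coding strand in brackets. Bars are exact 95% counting intervals and are mostly smaller than the points. MT-TS2 is highest in both libraries and MT-TG lowest, and the points of MT-TW and MT-TR lie farthest apart.

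MT-TS2 had 41404 counts in normoxia, or 6420 CPM (6358 to 6482), and 136420 in hypoxia, or 10402 CPM (10347 to 10457). It was first in both libraries and higher in hypoxia, with a log2 ratio of 0.70 (0.68 to 0.71) that ranged from 0.58 to 0.70 over the 5 scalings. Its share of the class went from 20.0% (19.9% to 20.2%) to 31.1% (31.0% to 31.2%), the largest shift of any member in percentage points. As a ratio of class shares, MT-TR (log2 1.34), MT-TW (-1.16), MT-TT (-0.85), MT-TA (-0.70) and MT-TN (-0.70) shifted more than MT-TS2 (0.63). MT-TS1, the serine tRNA for UCN codons (N being any base), is coded on the other strand and had 1654 and 2562 counts, with a log2 ratio of -0.39 (-0.48 to -0.30). Per base, MT-TS2 exceeded MT-TS1 by 29.3-fold in normoxia and 62.3-fold in hypoxia. The pair of serine tRNAs therefore moved apart by 1.09 on the log2 scale, a difference on which scaling has no bearing.

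The leucine pair was also uneven in level, and its members stayed closer to their proportion. MT-TL1, the tRNA for UUR codons (R being A or G), which lies between the genes of the 16S rRNA and ND1, had 16648 counts in normoxia and 35154 in hypoxia. MT-TL2, for CUN codons, had 745 and 1386. Their log2 ratios were 0.05 (0.03 to 0.08) for MT-TL1, which turned negative under 3 of the 4 other scalings, and -0.13 (-0.26 to 0.00) for MT-TL2. Per base, MT-TL1 exceeded MT-TL2 by 21.2-fold in normoxia and by 24.0-fold in hypoxia.

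MT-TR was the member with the largest log2 ratio. It had 1947 counts in normoxia, or 302 CPM (289 to 316), and 10449 in hypoxia, or 797 CPM (782 to 812), a log2 ratio of 1.40 (1.33 to 1.47) that stayed between 1.28 and 1.40 over the scalings. Its share of the class went from 0.943% to 2.38%, and its place in the order of counts from 15 to 12. MT-TG, the glycine tRNA on the other side of ND3, was the least abundant member, with 474 counts in normoxia and 1052 in hypoxia and a log2 ratio of 0.13, whose interval (-0.03 to 0.29) includes 0.

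MT-TM, the methionine tRNA, which serves for both starting and extending mitochondrial proteins, went from 15497 counts, or 2403 CPM (2365 to 2441), to 46693, or 3560 CPM (3528 to 3593). Its log2 ratio was 0.57 (0.54 to 0.59), and it was second to MT-TS2 in hypoxia. In normoxia it was at place 5 or 6, with an interval that overlapped that of MT-TN. Its neighbours MT-TI for isoleucine, with 1340 and 2105 counts, and MT-TQ for glutamine, with 1580 and 2549, lay on the other side of 0 at -0.37 (-0.47 to -0.27) and -0.33 (-0.43 to -0.24). MT-TI and MT-TQ overlap on opposite strands by a few bases, and MT-TQ had more counts than MT-TI in both libraries.

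MT-TW, the tryptophan tRNA, was the only member with fewer counts in the deeper library. It had 27269 counts in normoxia, or 4228 CPM (4178 to 4279), and 25974 in hypoxia, or 1980 CPM (1957 to 2005), a log2 ratio of -1.09 (-1.12 to -1.07) that stayed between -1.21 and -1.09 over the scalings. It was second of the 22 in normoxia, while in hypoxia its interval overlapped that of MT-TV, at place 6 or 7, and its share of the class went from 13.2% (13.1% to 13.3%) to 5.92% (5.85% to 5.99%).

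By the rule of size, an absolute log2 ratio of at least 0.9 with a mean log2 CPM above 3, 1 of the 22 tRNAs was higher in hypoxia (MT-TR) and 1 was lower (MT-TW), and the same 2 passed it under each scaling, filter, threshold and prior count tried. Over all features past the filter, 5.74% were higher and 3.29% lower, so 1 of 22 in each direction is near the background. TMM scaling over all features shifted the median of all features by -0.11 and gave 63 higher and 72 lower of the 1639 in place of 94 and 54. With all counts as the scale, 8 tRNAs had a log2 ratio above 0 and 14 below it. The interval included 0 for 2 of them, MT-TG and MT-TL2, and 20 kept their sign over the 5 scalings, with MT-TL1 and MT-TP as the exceptions.

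**Figure D2:**
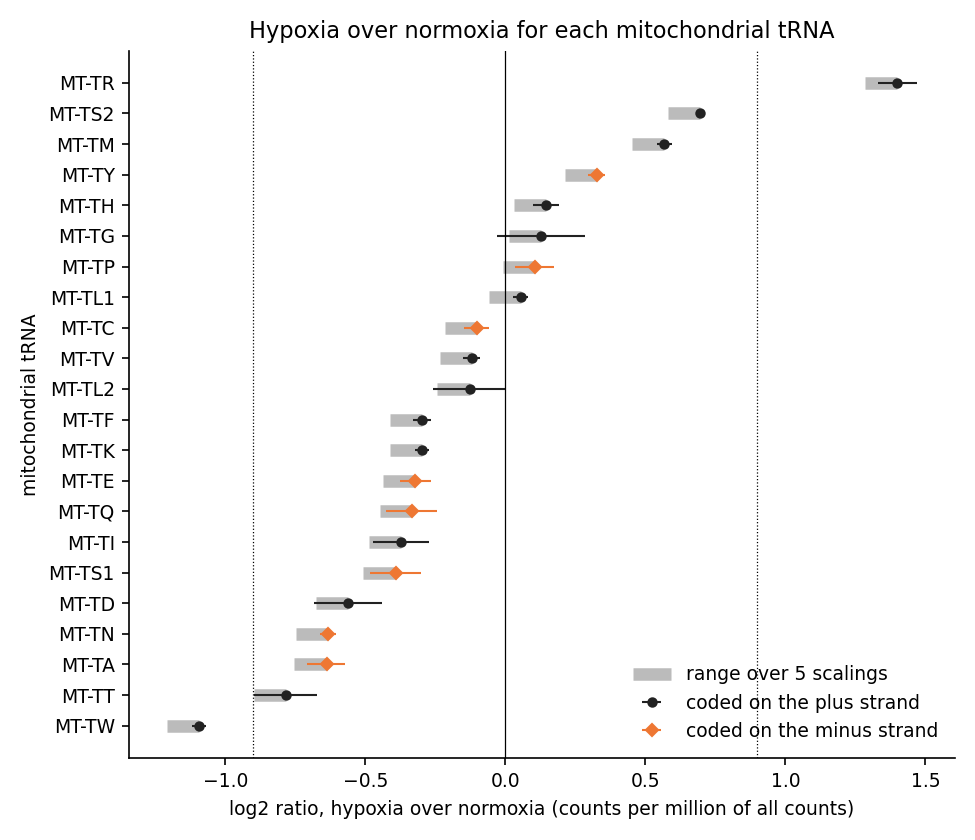
Log2 ratio of hypoxia over normoxia for each mitochondrial tRNA on the CPM scale, with exact 95% counting intervals (thin lines) and the range over 5 ways of scaling the libraries (grey bands). Dotted lines mark the size rule at -0.9 and 0.9. Only MT-TR and MT-TW lie past it, and plus strand (circles) and minus strand members (diamonds) are mixed along the order.

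The other tRNAs shifted less than MT-TR and MT-TW. Those with higher CPM in hypoxia were MT-TY for tyrosine (11631 and 29649 counts, log2 ratio 0.33), MT-TH for histidine (5448 and 12244, 0.14) and MT-TP for proline (2508 and 5483, 0.10). MT-TP was at -0.01 under TMM scaling over all features, so its direction depends on the scaling. Among the abundant tRNAs with lower CPM in hypoxia were MT-TK for lysine (19582 and 32379 counts, -0.30), MT-TN for asparagine (15946 and 20909, -0.63), MT-TV for valine (14178 and 26517, -0.12) and MT-TF for phenylalanine (12763 and 21106, -0.30). MT-TF is the first gene of the long transcript read from the plus strand, and MT-TV lies between the genes of the 12S and 16S rRNA. The remaining tRNAs were MT-TC for cysteine (6328 and 11989, -0.10), MT-TE for glutamate (4363 and 7097, -0.32), MT-TA for alanine (3117 and 4070, -0.64), MT-TT for threonine (1199 and 1414, -0.78) and MT-TD for aspartate (945 and 1302, -0.56). MT-TT came closest to the size rule from the inside, at -0.899 with TMM factors over all features and with totals without the most abundant features. In hypoxia the counting intervals overlapped between MT-TF (1588 to 1631 CPM) and MT-TN (1573 to 1616 CPM), between MT-TV and MT-TW, between MT-TH and MT-TC, between MT-TS1 and MT-TQ, between MT-TT and MT-TL2, and between MT-TL2 and MT-TD, so these neighbours in the order cannot be ranked. In normoxia this was so for MT-TN and MT-TM and for MT-TS1 and MT-TQ.

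**Figure D3:**
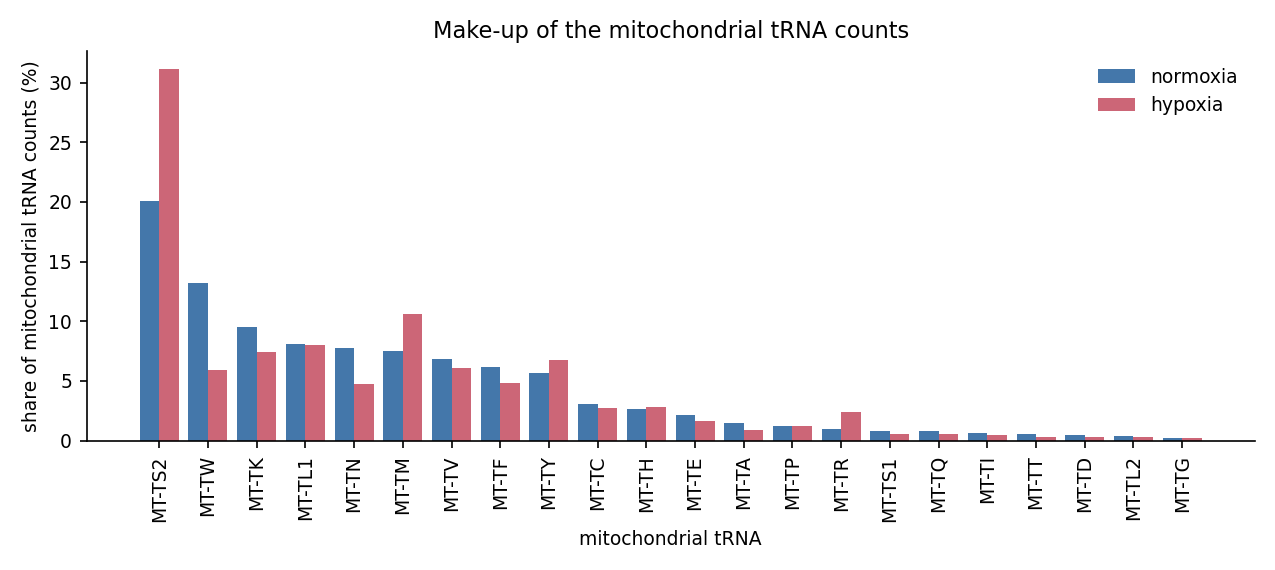
Share of the mitochondrial tRNA counts held by each of the 22 tRNAs in normoxia and hypoxia, ordered by the share in normoxia. MT-TS2 takes 20.0% and 31.1%, MT-TW 13.2% and 5.92% and MT-TM 7.50% and 10.6%, and the shares of each library sum to 100%.

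The spread of the log2 ratios among the 22 tRNAs was far above counting error, with an SD of 0.55 against 0.038 from counting alone. It was of the size seen elsewhere in the same libraries: among features in the same range of abundance, the SD was 0.42 for 199 nuclear tRNA features, 0.50 for 134 mature miRNAs and 0.48 for all 642 features outside the class. Whether culture, library preparation or oxygen gave this spread cannot be told apart with 1 library per condition.

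By coding strand, the 14 tRNAs of the plus strand gave 77.2% of the class in normoxia (77.0% to 77.4%) and 80.8% in hypoxia (80.7% to 80.9%), and the 8 of the minus strand the rest, with 47127 and 84308 counts. Summed and scaled by all counts, the plus strand was at a log2 ratio of 0.13 (0.12 to 0.14) and the minus strand at -0.18 (-0.20 to -0.17). TMM factors over all features lower both values by 0.11 and leave the gap between them as it is. Most of this gap came with the counts of MT-TS2. Without it, the other 13 tRNAs of the plus strand were at -0.14 (-0.15 to -0.13), next to the -0.18 of the minus strand, and the plus strand share was 71.5% in normoxia and 72.1% in hypoxia. The medians of single tRNAs were -0.12 for the plus strand, whose members ran from -1.09 to 1.40, and -0.33 for the minus strand, whose members ran from -0.64 to 0.33. On the plus strand 6 of 14 and on the minus strand 2 of 8 were above 0.

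Some genes that lie side by side differed strongly in counts. MT-TH, MT-TS2 and MT-TL2 are coded on the plus strand and adjoin each other with 0 bases in between. Per base, MT-TS2 lay above MT-TH by 8.89-fold in normoxia and 13.0-fold in hypoxia, and above MT-TL2 by 66.9-fold and 118-fold. MT-TH and MT-TL2 together were at a log2 ratio of 0.11 (0.07 to 0.16), against 0.70 for the gene between them. TMM factors over all features lower both values by 0.11, so the direction of MT-TH and MT-TL2 together depends on the scaling. In the group MT-TW, MT-TA, MT-TN, MT-TC and MT-TY, which holds the origin of light strand replication, the first is coded on the plus strand and the other 4 on the minus strand. The whole group went from 31.1% to 21.1% of the class, with a log2 ratio of -0.50 (-0.51 to -0.48), and without MT-TW it was at -0.18 (-0.19 to -0.16). Within it, MT-TA and MT-TN, which are 1 base apart, had log2 ratios of -0.64 and -0.63 and a ratio per base of 4.84 in normoxia and 4.86 in hypoxia, so that the proportion of this pair was nearly the same in both libraries. MT-TC and MT-TY, which share 1 base, were at -0.10 (-0.15 to -0.06) and 0.33 (0.30 to 0.36). The 3 tRNAs around the rRNA genes (MT-TF, MT-TV and MT-TL1) ran from -0.30 to 0.05 and went from 21.1% to 18.9% of the class. MT-TS1 and MT-TD together were at -0.45 (-0.52 to -0.38), and MT-TT and MT-TP together at -0.13 (-0.19 to -0.07).

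The first base of the anticodon, which reads the wobble position, is modified in some of these tRNAs. The 5 that carry a taurine-containing uridine there (MT-TL1, MT-TQ, MT-TW, MT-TK and MT-TE) went from 33.6% of the class to 23.5%, a log2 ratio of the sums of -0.45 (-0.47 to -0.44). With MT-TW left out, the other 4 were at -0.15 (-0.17 to -0.13). The 4 with queuosine (MT-TN, MT-TY, MT-TD and MT-TH) were at -0.11 (-0.13 to -0.09) and ran from -0.63 to 0.33. The 8 with an unmodified uridine (MT-TV, MT-TA, MT-TS1, MT-TG, MT-TR, MT-TL2, MT-TT and MT-TP) were at 0.01 (-0.01 to 0.03), and at -0.19 (-0.22 to -0.17) without MT-TR. The remaining 5 (MT-TF, MT-TI, MT-TM, MT-TC and MT-TS2) were at 0.47 (0.46 to 0.49), and at 0.16 (0.15 to 0.18) without MT-TS2. The median log2 ratio was below 0 in each of these 4 groups, between -0.32 and -0.10. Among features past the filter it was 0.13 over all features and -0.09 over nuclear tRNA features. In the 3 groups with a tRNA left out, it was the member whose log2 ratio lay farthest from 0, so the choice rests on these same values. Leaving it out moved the sum by more than its counting interval, and the same was not tried for queuosine.

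Across the 22 tRNAs the log2 ratio had a Spearman's rho of -0.35 with length and -0.01 with GC content, and -0.26 and -0.09 without MT-TS2. These are descriptions across tRNAs that share libraries and a genome.

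Nuclear tRNAs, which serve the ribosomes of the cytosol, were taken for comparison. The 571 nuclear tRNA features took 8.31% of all counts in normoxia (8.29% to 8.33%) and 7.25% in hypoxia (7.24% to 7.26%), a log2 ratio of -0.20 (-0.20 to -0.19). Of the counts on both classes as listed, mitochondrial tRNAs held 27.8% in normoxia and 31.6% in hypoxia, which does not depend on scaling but does depend on how reads were counted at copies of a gene. Without MT-TS2 the mitochondrial class, at -0.15, was close to the nuclear one. Nuclear tRNA genes exist in many copies: 176 of the features had a copy of the same sequence (past their first listed base) under another name, in 62 sets, and in 37 of the 55 sets with at least 100 counts the copies agreed within 20% in hypoxia. Whether a read was split among copies or counted at each is not stated, so the share of a class within a library is no measure of its abundance relative to the other.

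By amino acid, the classes had unlike profiles. Nuclear shares are of the counts on the 493 of 571 nuclear features whose name gives one of the 20 amino acids. Serine took 20.8% of mitochondrial tRNA counts in normoxia and 31.7% in hypoxia, but 1.55% and 2.09% of nuclear tRNA counts. Tryptophan took 13.2% and 5.92% of the mitochondrial counts and 0.123% and 0.115% of the nuclear ones. Glycine was the reverse, with 0.229% and 0.240% of the mitochondrial and 14.0% and 12.7% of the nuclear counts. The log2 ratios of the 20 amino acids had a Spearman's rho of -0.01 between the classes, as a description across amino acids that share both libraries. A mitochondrial value here is that of 1 tRNA, or 2 for leucine and serine, while a nuclear value is a sum over 7 to 43 features, so the spread of the values cannot be compared between the classes. Arginine was at 1.40 in the mitochondrial and -0.15 in the nuclear class, and tyrosine at 0.33 and -1.12. Methionine was above 0 in both, at 0.57 and 0.40, and tryptophan below 0 in both, at -1.09 and -0.29.

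**Figure D4:**
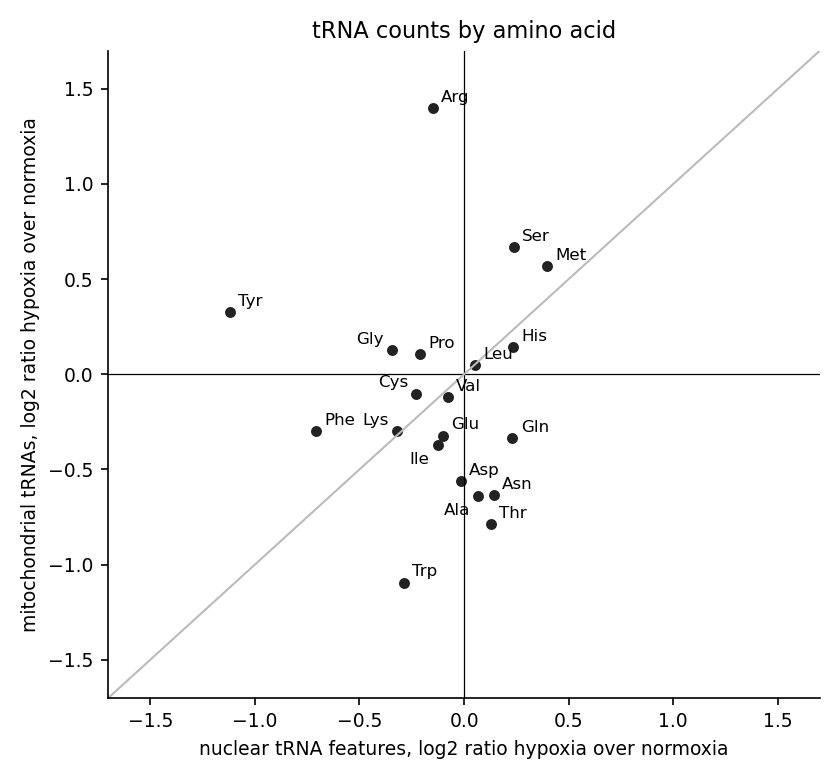
Log2 ratio of hypoxia over normoxia by amino acid, for nuclear tRNA features (horizontal) and mitochondrial tRNAs (vertical), both on the CPM scale. The grey line marks equal ratios. Arginine (1.40 mitochondrial, -0.15 nuclear) and tyrosine (0.33, -1.12) lie farthest above the line, and threonine (-0.79, 0.13) farthest below it.

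The table lists 25 more features on the mitochondrial chromosome, classed as piRNA or tRNA, which together had 23478 and 45290 counts and a log2 ratio of -0.08 (-0.10 to -0.05). Of these, 22 could be placed on GENCODE transcripts by sequence, and their listed positions were 1 base (13 features) or 2 bases (9 features) higher than in GRCh38. The table thus holds 2 numberings of the mitochondrial chromosome, and only that of the 22 tRNAs is the one of GENCODE. The most abundant of the 25 is shown because it starts at the first base of the 16S rRNA gene MT-RNR2, directly after the last base of MT-TV.

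FR365501 (chrM:1671-1696, plus strand): gctaaacctagccccaaacccactcc

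It had 16194 and 33325 counts, with a log2 ratio of 0.02 (-0.01 to 0.04). The 5 features within MT-RNR2 together were at 0.01 (-0.02 to 0.03) and the 3 within the 12S rRNA gene MT-RNR1 at 0.14 (0.04 to 0.25), with 1152 and 2588 counts. The rRNAs leave the same primary transcript as MT-TF, MT-TV and MT-TL1, whose log2 ratios ran from -0.30 to 0.05. Of the 25 features, 15 passed the expression filter. By size, 2 of these 15 were lower in hypoxia and 0 higher, against 3.29% and 5.74% of all features past the filter: FR068012, listed in the non-coding control region and not placed on a transcript (1262 and 1194 counts, -1.10, interval -1.22 to -0.99), and FR193908, antisense to MT-CO2 (529 and 270 counts, -1.98, -2.21 to -1.78).

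Some reads of a tRNA may have been counted elsewhere. The table has 41 other features that share a run of 20 bases with a member, 31 of them in the nuclear genome, where copies of mitochondrial DNA are common. The nuclear ones held 1044 counts in normoxia and 2009 in hypoxia, which are not part of the class and equal 0.505% and 0.458% of its size. Relative to the counts of the tRNA itself, the counts on such features in hypoxia were highest for MT-TE, at a size of 9.95% of its counts, followed by MT-TF at 7.60% and MT-TN at 5.85%. MT-TW and MT-TR, which passed the size rule, share no such run with any listed feature, and the feature that overlaps MT-TS2 had counts of its own that equal 0.196% of those of MT-TS2 in hypoxia. An entry with the sequence of MT-TE under another name had 161 and 375 counts while MT-TE itself had 4363 and 7097. Its log2 ratio was 0.19 (-0.07 to 0.47), against -0.32 for MT-TE. The entry with the sequence of MT-TK had 56 and 36 counts and was at -1.59 (-2.31 to -1.03), against -0.30 for MT-TK. Identical entries of MT-TI, MT-TH and MT-TN had few counts. Adding the other features on the same strand of a tRNA to its counts changed the sign of none of the 8 tRNAs that have any.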

How the data were processed

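Small RNAs of A549 cells in normoxia and hypoxia were sequenced on the SOLiD platform after ligation and PCR without molecular identifiers. For each feature the file deposited by the authors gives 1 unnormalized count per library. The methods name LifeScope version 2.5.1 and miRBase version 18 for SOLiD data, and the submitters' processing notes name hg19. The annotation of tRNAs and the treatment of reads that match several places are not given in the sources used here. Ligation and reverse transcription can be hindered by modified bases, which are frequent in tRNAs, so counts compare a tRNA between libraries better than tRNAs with each other. This was not tested.

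Shares have exact Clopper-Pearson 95% intervals and ratios exact conditional binomial 95% intervals. Log2 ratios were computed from log2 CPM of all counts (6449337 in normoxia, 13115226 in hypoxia) with a prior count of 2. Features with an absolute log2 ratio of at least 0.9 and a mean log2 CPM above 3 were counted as higher or lower. There is no test, since there is 1 library per condition. Alternatives were TMM factors of edgeR version 4.0.16 on all features or on mature miRNAs, DESeq2 (version 1.42.0) size factors, and totals from which the 10 most abundant features of either library were left out, each brought to the same mean size so that the filter did not change. Other filters and thresholds, a smaller prior count (0.5) and a random subset of the hypoxia counts of the size of the normoxia library were tried as well. The calculation was tested on simulated counts with counting error only (Poisson), for 5475 features with 200 changed by known folds. The size rule was met by 52 of the 54 changed features past the filter and by 0 of 1599 unchanged ones. The true ratio lay in 95.6% of intervals. The simulation holds no spread between cultures or library preparations. It therefore checks the arithmetic and does not show how reliable the size rule or the intervals are on the real libraries. R version 4.3.3, Python version 3.11.15 and scipy version 1.17.1 were used. All 22 tRNAs are named. The members and lists were chosen with earlier results of these data known.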

Additional observations from a re-analysis of the deposited data

How the results depend on the processing

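No paired analysis was possible because there is 1 library per condition, which also left no library to leave out. Mitochondrial tRNA pseudogenes could not be added, since the table classes no feature so. With counts on mature miRNAs as the denominator, the class took 4.58% in normoxia and 5.10% in hypoxia, and with all counts but the 10 most abundant features of either library, it took 6.76% and 5.62%. MT-TS2 is among those features, so in this alternative it left both the class and the denominator.

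The log2 ratio of the class was 0.062 by all counts, 0.042 with TMM on mature miRNAs, -0.053 with TMM on all features, -0.039 with DESeq2 size factors, -0.052 with totals without the most abundant features and -0.15 without MT-TS2. TMM on all features lowered the median of all features by 0.11. The features higher and lower by size were 94 and 54 by all counts, 63 and 72 with TMM on all features and also with totals without the most abundant features, 67 and 67 with DESeq2 size factors, and 991 and 388 without a filter on low counts. MT-TR and MT-TW were past the size rule in each of the 9 alternatives.

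The plus strand share of the class was 71.5% in normoxia and 72.1% in hypoxia without MT-TS2. It was 65.9% and 70.6% when the mean count per tRNA of each strand replaced the sum. That mean corrects for the number of genes per strand only, and abundant tRNAs such as MT-TS2 still weigh most in it. Counts per base, an alternative chosen after seeing the data, put MT-TS2 at 22.8% and 34.7% of the class. Of the 22 signs, all were kept with a prior count of 0.5 and after thinning of the deeper library, and MT-TL1 alone changed with shares of the class. The least abundant tRNA had 474 counts in normoxia, and the spread between cultures and library preparations, which these libraries do not measure, is in none of the intervals.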
